A study of Homo sapiens with 11 samples.

Results

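The regions compared are those of the myc_FLAG list and the endog_myc list, the CUT&RUN maps of FLAG-tagged myc and of endogenous myc in HEK293T cells. In CUT&RUN an antibody guides a nuclease to its target in permeabilised cells, and the released DNA fragments are sequenced and called as peaks. HEK293T is an established line from human embryonic kidney, transformed so that it makes the large T antigen of SV40. Members were the rows of each list on chromosomes 1 to 22 and X that overlapped neither the mouse IgG list nor the rabbit IgG list by 1 bp or more. This left 801 of the 1290 deposited myc_FLAG regions and 873 of the 1359 deposited endog_myc regions, out of 5435 regions in all 5 lists of the series. Regions that met any region of the other list over 1 bp or more are called shared, and all others single-list.

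Each of the 2 lists stands for 3 libraries, merged by its name, so no value below measures the spread between libraries, and read depth is unknown. The labels leave unsaid at which step, reads or called peaks, they were combined. All groups are HEK293T cells prepared with the EpiCypher CUTANA kit, and the labels name no treatment. How the FLAG-tagged protein was introduced and expressed is not given, nor whether the endog_myc cells carried it. By the protocols, a mouse antibody to FLAG and a rabbit antibody to myc were used, and which antibody went with which group is read from the group names. FLAG is a short peptide tag, and IgG antibodies have no chosen target, so the mouse and rabbit IgG lists, from 1 library each, give the background. Another target list, edit_myc_FLAG, with 1942 regions on the same chromosomes, was not used to define the parts and serves as an outside measure. What "edit" stands for is not given. Whether the labelled protein was present cannot be checked from peak lists.

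MYC is a basic helix-loop-helix leucine zipper transcription factor that pairs with MAX to bind DNA. The dimer prefers the E-box, with CACGTG as its canonical form, and MYC is known to occupy many active promoters, with or without an E-box. Genes of ribosome production, RNA processing, nucleotide synthesis and the cell cycle are textbook targets.

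The sequences below show where that word lies in the promoters at shared regions. RefSeq promoter records (GRCh38.p14, the same assembly as hg38) run from 250 bases before to 50 bases after a start site. Among the 12 top-ranked shared genes described further on, 11 had a record near the summits and 2 held CACGTG, ACTMAP with 2 words and ADI1 with 1. The first 3 lines are these words, each in 30 bases of its gene's strand, 5′ to 3′, with CACGTG in capitals.
ACTMAP: tgcgttttctgtCACGTGatcgcaaaatgg
ACTMAP: tgcgtgtaatacCACGTGatatgggaaagg
ADI1: aggCACGTGcgatgcctacggtgagcttca
These windows lie at chr19:40750547-40750576, chr19:40750506-40750535 and chr2:3519752-3519781, all on the minus strand. None of the 3 words lay inside a region of either list. Only the promoter records were searched, and they cover the regions in part or not at all. Whether the regions hold the word outside these records is therefore unknown. The nearest, in ACTMAP, was 424 bp from the myc_FLAG summit and 323 bp from the endog_myc summit.

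Over all shared gene-end pairs, 6 of the 16 CACGTG words found lay inside the regions of both lists, and 7 lay in neither. The 6 belong to RBM15, an RNA-binding protein of the m6A writer complex, KDM4B, a histone lysine demethylase, NAPA, a membrane fusion adaptor, CBX5, which encodes the heterochromatin protein HP1 alpha, and PHPT1, a phosphohistidine phosphatase. These 6 were chosen after their positions were seen, for lying inside both regions, and are not in every case the words nearest to the summits.
RBM15: aacactttgggtCACGTGaccgcagagtgc
KDM4B: gtcagcgggCACGTGggtgggcgccggcgt
NAPA: cttccacagggtCACGTGggaggtgaggta
CBX5: tcttgttgaccgCACGTGtagtaaaatggc
CBX5: tgcctctgagaaCACGTGaaatggcgggca
PHPT1: gcgattggtcagCACGTGcctcggtcggcg
Their windows are chr1:110339184-110339213, chr19:4968863-4968892, chr19:47515260-47515289, chr12:54280312-54280341, chr12:54280249-54280278 and chr9:136849267-136849296, in the order shown. The NAPA word contained the myc_FLAG summit and lay 12 bp from the endog_myc summit. For PHPT1 the distances were 61 bp and 1 bp, for KDM4B 41 bp and 8 bp, and for RBM15 67 bp and 9 bp. In CBX5 the nearer word lay 70 bp and 226 bp from the summits, and the other 133 bp and 289 bp. Over all 16 words the median distance was 157 bp to the myc_FLAG summit and 207 bp to the endog_myc summit.

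CACGTG stood in 13 of 131 promoter records at shared pairs (9.92%, 95% Wilson interval 5.89 to 16.2), in 19 of 124 records of genes in myc_FLAG alone (15.3%, 10.03 to 22.7) and in 11 of 144 of genes in endog_myc alone (7.64%, 4.32 to 13.2). It stood in 8.34% of all 22132 records of protein-coding genes. The share of all records lay inside the intervals at shared pairs and in endog_myc alone, and below the interval in myc_FLAG alone. CACGCG, a variant E-box searched with its reverse complement CGCGTG, stood in 20.6%, 21.8% and 18.8% of the same 3 sets, against 14.2% of all records. The intervals were 14.6 to 28.3, 15.4 to 29.8 and 13.2 to 25.9, in that order. For CACGCG the share of all records lay below the intervals at shared pairs and in myc_FLAG alone. It lay inside the interval in endog_myc alone. The sets were richer in G and C than all records, with medians of 64% at shared pairs, 66.3% and 66.5%, against 62.3%. The part of base composition in these shares was not tested. Records of neighbouring genes can overlap, and 72 of the 153 genes in myc_FLAG alone had a region that also lay at another gene's end. The same word can then count in several records, so these intervals may be too narrow. A word in these windows is a match of letters and not a measured binding site.

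Each list was split into shared and single-list regions of similar number. In myc_FLAG 390 of 801 regions overlapped endog_myc (48.7%, 95% Wilson interval 45.2 to 52.1). In endog_myc 390 of 873 overlapped myc_FLAG (44.7%, 41.4 to 48.0). This left 411 regions in myc_FLAG alone and 483 in endog_myc alone. Intervals here and below cover counting error only. Of the dropped regions, which also occur with IgG, 96.0% in myc_FLAG and 96.3% in endog_myc overlapped the other list, so keeping them would raise the shares to 61.1% and 57.0%.

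The edge of the rule was thinly filled. The smallest overlap that counted was 10 bp and the smallest gap that did not was 49 bp. The median overlap was 241 bp, and only 19 of 391 overlapping pairs overlapped by less than 50% of the shorter region. Most single-list regions were far from the other list. Within 1000 bp of it lay 20 of 411 in myc_FLAG (4.87%) and 24 of 483 in endog_myc (4.97%), and the median gap was 134081 bp and 195804 bp.

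By the medians over all locations, shared regions were wider and carried a higher fold than single-list regions. The fold is the authors' enrichment of a peak over its local background, and q is the false discovery rate of the peak. Median width was 290 bp for shared and 227 bp for single-list regions in myc_FLAG, and 303 bp and 255 bp in endog_myc. Median fold was 5.73 against 5.0 in myc_FLAG and 5.92 against 5.04 in endog_myc. Shared regions reached a −log10 q of 5 in 73.8% of cases in myc_FLAG and single-list regions in 38.9%, against 77.2% and 38.5% in endog_myc. A single-list region is no measured absence from the other list. In myc_FLAG 5 of them, and in endog_myc 1, overlapped a region of the other list that was called and then dropped for its overlap with IgG.

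Sharing fell with fold rank and then rose again at the bottom of both lists. In the highest-fold quintile 112 of 161 myc_FLAG regions were shared (69.6%, 62.1 to 76.1) and 124 of 175 endog_myc regions (70.9%, 63.7 to 77.1). In the fourth quintile the shares were 28.8% (22.3 to 36.2) and 24.0% (18.3 to 30.8). The lowest quintile stood at 45.6% (38.1 to 53.4) and 42.5% (35.4 to 49.96). Its regions had a fold of at most 4.24 and 4.13 but a median −log10 q of 4.25 and 4.20, above the 2.91 and 2.90 of the fourth quintile. Gene ends made up only 11.2% of the lowest quintile in myc_FLAG and 6.32% in endog_myc.

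**Figure D1:**
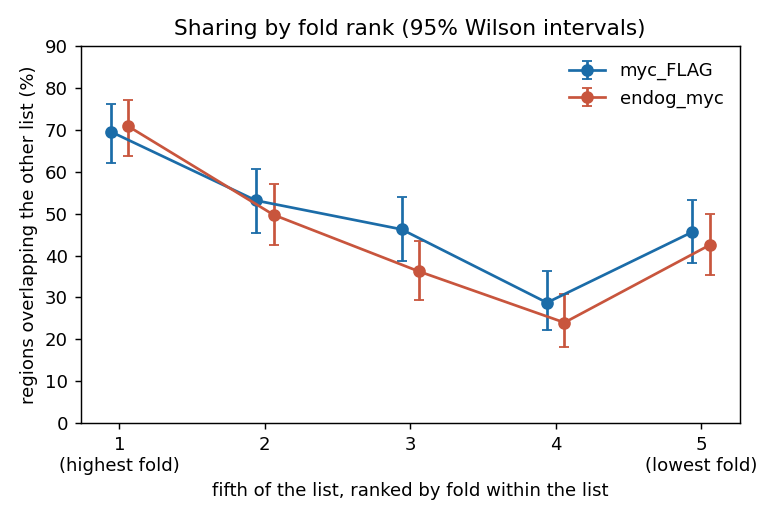
Share of the regions of each list that overlap the other list (y axis, percent) by quintile of the list ranked by fold within the list (x axis, 1 the highest fold), with 95% Wilson intervals. In both lists the share falls from about 70% in the first quintile (69.6% and 70.9%) to 28.8% and 24.0% in the fourth, and is higher in the last quintile (45.6% and 42.5%).

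Shared and single-list regions did not differ past the test in their shares at gene ends or in gene-poor places. Gene ends, meaning summits no more than 1000 bp from where a protein-coding gene starts or stops, held 32.8% of shared and 28.7% of single-list myc_FLAG regions, and 32.6% and 31.3% of those in endog_myc. Gene-poor places, over 100 kb from any annotated gene, held 37.4% and 35.0% in myc_FLAG, and 37.7% and 32.1% in endog_myc. None of the 6 differences in these 2 locations passed two-sided Fisher's exact tests, counting also the single-list regions of both lists against each other, and the lowest adjusted p was 0.259. Benjamini-Hochberg adjustment ran over 9 comparisons of shares, with regions as units. The interior of genes held 13.1% of shared regions in each list, against 21.4% of single-list regions in myc_FLAG and 19.3% in endog_myc, which was not among the tests. With the IgG regions kept, the gene-end difference turned round, with shared regions 7.41 points below single-list ones in myc_FLAG (exact test, adjusted p = 0.0145) and 10.2 points below in endog_myc (exact test, adjusted p = 0.000332). Only 3.31% and 3.33% of the IgG regions so added lay at gene ends.

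**Figure D2:**
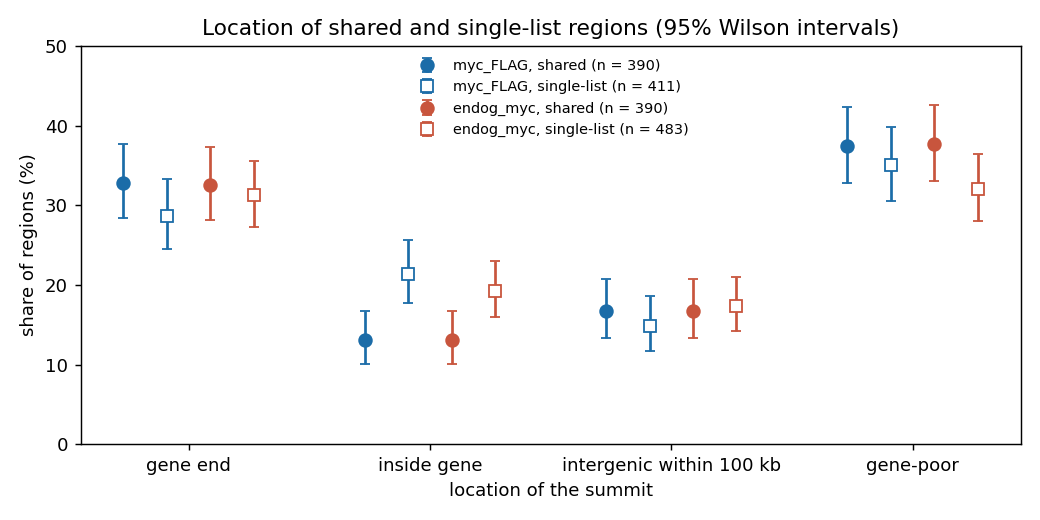
Share of regions (y axis, percent) in each location of the summit (x axis) for the shared and single-list regions of both lists, with 95% Wilson intervals. Filled circles are shared and open squares single-list regions; at gene ends the 4 shares run from 28.7% to 32.8%.

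Read the other way, 52.0% of gene-end regions in myc_FLAG were shared (128 of 246, 45.8 to 58.2) and 45.7% in endog_myc (127 of 278, 39.9 to 51.6). In gene-poor places the shares were 50.3% (146 of 290) and 48.7% (147 of 302), and inside genes 36.7% (51 of 139) and 35.4% (51 of 144). At gene ends sharing was highest among the highest folds. Of the gene-end regions in the highest-fold quintile, 37 of 42 were shared in myc_FLAG (88.1%) and 47 of 62 in endog_myc (75.8%). In the fourth quintile these numbers were 16 of 51 (31.4%) and 15 of 59 (25.4%). Chromosome 19, which is dense in genes, held 42 of the 128 shared gene-end regions of myc_FLAG and the same number of the 127 of endog_myc, with 1451 of 19974 protein-coding genes. In each list 42 of its 59 gene-end regions were shared.

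Recurrence in the edit_myc_FLAG list set shared regions apart. Of the shared myc_FLAG regions, 278 of 390 overlapped edit_myc_FLAG (71.3%, 66.6 to 75.5), against 140 of 411 single-list regions (34.1%, 29.6 to 38.8). The difference of 37.2 points passed Fisher's exact test with an adjusted p of 8.20e-26. For endog_myc the numbers were 276 of 390 (70.8%, 66.1 to 75.1) against 158 of 483 (32.7%, 28.7 to 37.0), a difference of 38.1 points with an adjusted p of 1.26e-28 in the same exact test. Median fold and −log10 q were also higher over all shared regions. The edit_myc_FLAG list itself was not filtered by the IgG lists. Keeping the IgG regions in myc_FLAG and endog_myc gave larger differences, 46.9 points in each list, so recurrence is not particular to regions outside IgG. With a −log10 q of at least 5 in both lists the differences were 28.0 points in myc_FLAG and 22.5 points in endog_myc, and each still passed the exact test (adjusted p = 9.40e-09 and 1.35e-06). Between the single-list regions of the 2 lists the difference was 1.35 points, higher in myc_FLAG (exact test, adjusted p = 0.715). It changed sign to -5.20 points with that q limit.

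The recurrence was highest at gene ends and lowest in gene-poor places. At gene ends 109 of 128 shared myc_FLAG regions were also in edit_myc_FLAG (85.2%, 78.0 to 90.3), against 56 of 118 single-list regions (47.5%, 38.7 to 56.4). For endog_myc the shares there were 83.5% (76.0 to 88.9) and 45.0% (37.3 to 53.0). In gene-poor places they were 56.8% (48.7 to 64.6) and 22.9% (16.8 to 30.4) in myc_FLAG, and 56.5% (48.4 to 64.2) and 15.5% (10.6 to 22.01) in endog_myc. The difference between locations was not tested.

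**Figure D3:**
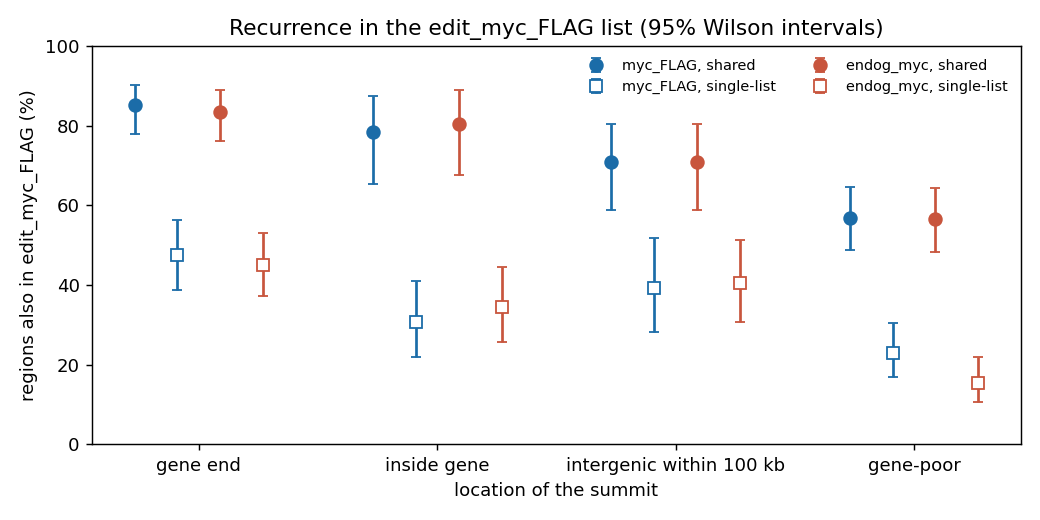
Share of regions that overlap the edit_myc_FLAG list (y axis, percent) by location of the summit (x axis) for shared (filled circles) and single-list (open squares) regions of both lists, with 95% Wilson intervals. Shared regions lie above single-list regions in all 4 locations, with 85.2% and 83.5% at gene ends against 47.5% and 45.0%.

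The paired summits lay close together, and over all pairs closest far from genes. The 389 pairs of mutually nearest summits were a median of 28 bp apart (quartiles 8 and 96), with 60.7% within 50 bp and 92.5% within 200 bp. In the 146 gene-poor pairs the median was 12.5 bp (quartiles 4 and 33.5), and 84.2% were within 50 bp. In the 127 gene-end pairs the median was 63 bp (quartiles 21.5 and 126.5), and 40.2% were within 50 bp. Without regions in gaps over 1 Mb only 10 gene-poor pairs remained, with 70.0% within 50 bp (interval 39.7 to 89.2). That interval includes the gene-end share, so these pairs are too few to show the order outside such gaps. The 50 pairs inside genes had a median of 28.5 bp and the 64 intergenic pairs nearer to genes one of 49 bp. In no gene-end pair did the summits fall on the same base, which they did in 7 pairs in all. Paired regions overlap by definition, so their widths limit the summit distances. Over all kept regions the median width in gene-poor places was 242 bp in myc_FLAG and 267.5 bp in endog_myc. At gene ends it was 265 bp and 289 bp. The part of width in the distances was not tested.

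**Figure D4:**
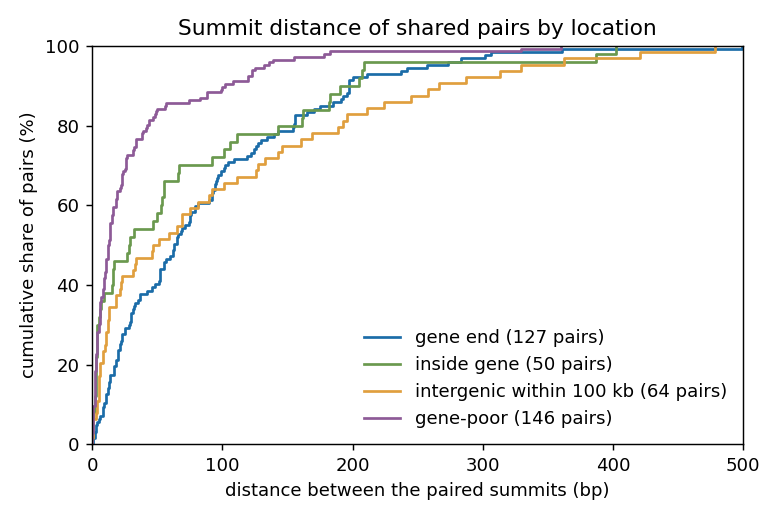
Cumulative share of shared pairs (y axis, percent) by the distance between their summits in bp (x axis), one line per location. The gene-poor line rises fastest, with 84.2% of pairs within 50 bp against 40.2% at gene ends.

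The farthest gene-end summits belonged to PPM1B, a metal-dependent protein phosphatase, with 499 bp between them. Its myc_FLAG region ran from 44168147 to 44168733 on chromosome 2 and its endog_myc region from 44168613 to 44168836, and the summits lay 647 bp and 148 bp from the start site. The folds were nearly equal at 5.50 and 5.51. ANKHD1, an ankyrin repeat protein, had summits 361 bp apart with folds of 5.97 and 5.74. The pair listed under CAMTA2, nearer to SPAG7 and therefore placed at that gene's end, had summits 306 bp apart with folds of 7.66 and 6.54.

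Fold ranks agreed closely between the lists except at gene ends. Spearman's rho of fold over all 389 pairs was 0.75, as a description across regions of 2 lists whose background lists were used in common. It was 0.87 over the 146 gene-poor pairs, 0.88 over the 64 intergenic pairs within 100 kb of a gene, 0.74 over the 50 inside genes and 0.36 over the 127 at gene ends. Folds spanned a narrower range at gene ends, with quartiles of 5.35 and 7.14 in myc_FLAG, than in gene-poor places, with 4.56 and 8.43. The part of that range in the lower rho was not tested. By rank of −log10 q the values were 0.38 at gene ends and 0.71 in gene-poor places. With the IgG regions kept, rho of fold was 0.85 over all pairs, 0.92 in gene-poor places and 0.41 at gene ends. Without regions in gaps over 1 Mb it was 0.60 over all pairs, and only 10 gene-poor pairs remained. The part of background or of such gaps in the agreement was not tested. In 55 of the 127 gene-end pairs the region stood relatively higher in myc_FLAG, and in 73 of the 146 gene-poor pairs.

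**Figure D5:**
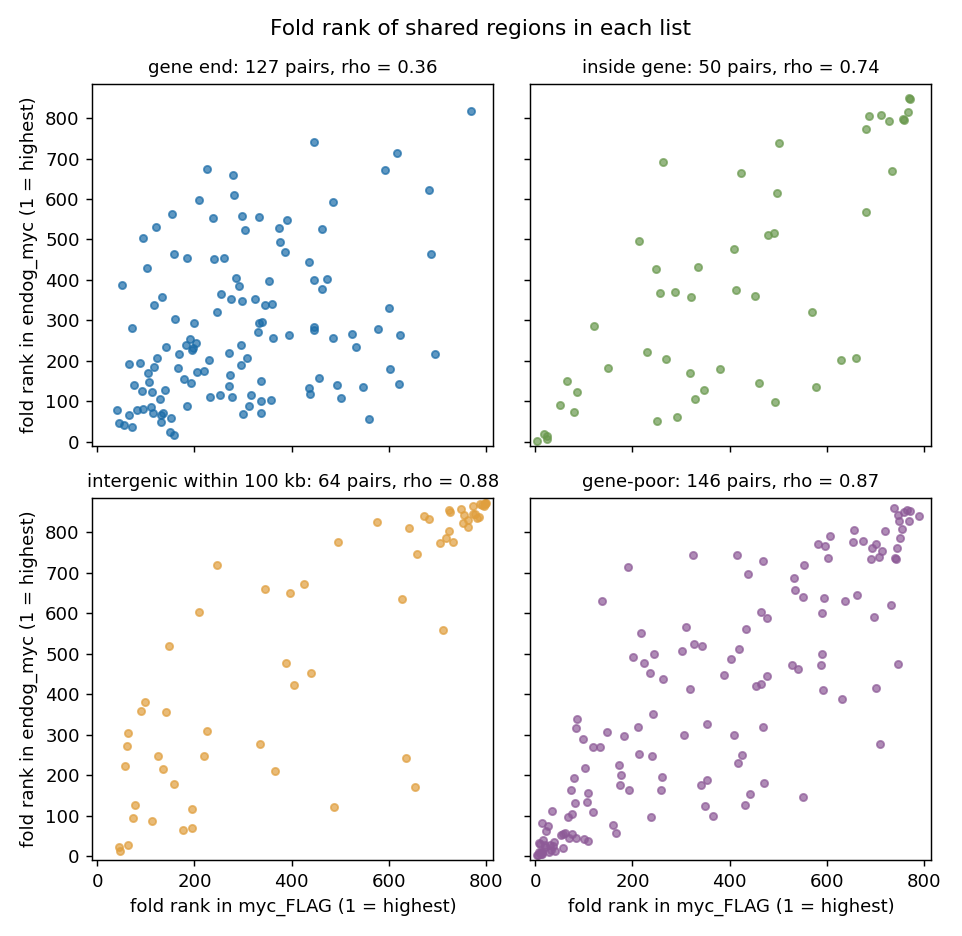
Fold rank of each shared pair in myc_FLAG (x axis, 1 the highest of 801) and in endog_myc (y axis, 1 the highest of 873), 1 panel per location. Gene-poor pairs gather along the diagonal (rho 0.87), while gene-end pairs are scattered (rho 0.36).

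Large shifts in rank at gene ends went both ways. PRDM10, a PR domain zinc finger protein, ranked 95 in myc_FLAG with a fold of 8.33 and 504 in endog_myc with 5.06, although the summits were 37 bp apart. MAP3K3, a kinase of stress signalling, ranked 120 (fold 7.69) and 530 (4.94). ZNF687 ranked 225 (6.43) and 674 (4.30), and LCN12, a lipocalin, 154 (7.09) and 564 (4.75). In these 4 pairs the myc_FLAG region was the higher. The LCN12 summits lay 2100 bp and 2293 bp from its nearest recorded start site.

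The opposite order was seen at RPRD2, a protein that binds the tail of RNA polymerase II. It ranked 560 in myc_FLAG with a fold of 4.67 and 57 in endog_myc with 8.76, with the summits 11 bp apart. KMT5C, a histone H4 lysine methyltransferase, ranked 620 (4.40) and 142 (7.25). ERCC2, a helicase of transcription factor IIH and nucleotide excision repair, ranked 603 (4.48) and 179 (6.80). ZKSCAN5 ranked 694 (3.99) and 218 (6.44), and the −log10 q of its myc_FLAG region, 1.35, was the lowest in that list. Each rank is that of 1 merged list, so how far ranks move between libraries is unknown.

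In gene terms, 317 protein-coding genes had a myc_FLAG region at an end, 1.59% of 19974 tested, and 346 had an endog_myc region, 1.73%. Of these, 164 genes (0.821%) were in both lists, which is 51.7% of the myc_FLAG genes and 47.4% of the endog_myc genes. In 158 of them the same pair of regions lay at the gene, and in 6 different regions. In myc_FLAG alone were 153 genes (0.766%) and in endog_myc alone 182 (0.911%). Of the 164, 138 were also in edit_myc_FLAG (84.1%), against 73 of the 153 (47.7%) and 83 of the 182 (45.6%). With a −log10 q of at least 5 in both lists, 76 genes were in both, 62 in myc_FLAG alone and 101 in endog_myc alone.

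Most of these ends were gene starts. Where a RefSeq start site was recorded, the summit was within 1000 bp of it for 137 of 147 genes in both lists by the myc_FLAG summit (93.2%), at a median of 195 bp, and for 137 of 147 by the endog_myc summit, at 205 bp. For single-list genes it was 125 of 135 in myc_FLAG (92.6%) and 145 of 158 in endog_myc (91.8%). Neighbouring genes shared regions: 69 of the 164 genes had a myc_FLAG region that also lay at another gene's end, so genes are fewer than independent sites.

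The 12 shared genes with the lowest sum of ranks came from 10 pairs of regions. All 12 had an edit_myc_FLAG region, as did 134 of all 158 genes at a shared pair (84.8%). SNRPA encodes the U1 small nuclear ribonucleoprotein A, and ACTMAP, an actin maturation protease, starts beside it on the opposite strand. Their region on chromosome 19 ran from 40750686 to 40751111 in myc_FLAG and from 40750623 to 40751141 in endog_myc, with ranks of 56 and 42. HNRNPC, which packages nascent transcripts, had regions on chromosome 14 from 21269529 to 21269853 and from 21269517 to 21269805. Its ranks were 66 and 67, with the summits 9 bp apart and 199 bp and 190 bp from the start site. Both genes serve RNA processing.

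P4HB, a protein disulfide isomerase, ranked 71 and 37 and its summits on chromosome 17 were 20 bp apart. SWSAP1, a partner of SWS1 in homologous recombination, ranked 40 and 79, at 18 bp. CAMTA1, a calmodulin-binding transcription activator, ranked 82 and 78, at 52 bp, and ADI1, of the methionine salvage pathway, 94 and 82, at 99 bp. The highest pair was that of LOC124903130 on chromosome 13, with ranks 44 and 47 and summits 1 bp apart, 757 bp and 756 bp from the recorded start.

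OSBP, an oxysterol-binding protein, and MYPOP, a Myb-related factor, stood higher in endog_myc. OSBP ranked 150 with a −log10 q of 8.08 in myc_FLAG and 24 with 18.8 in endog_myc. MYPOP ranked 157 with 7.99 and 18 with 24.2. LENG1 and TMC4, neighbours on chromosome 19, shared a pair with ranks 131 and 48, and its summits were 172 bp and 117 bp from the LENG1 start, whereas the nearest recorded TMC4 start was 13267 bp and 13322 bp away.

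Other shared pairs, named after their values were seen, lay at XPO1, a nuclear export receptor (folds 5.79 in myc_FLAG and 8.43 in endog_myc), and KPNB1, an import receptor (5.59 and 5.99). TOP2A, a DNA topoisomerase II, had 8.43 and 6.68, and the histone demethylase genes KDM4A and KDM4B had 6.78 and 6.30, and 5.98 and 6.95. The bidirectional pairs PRR11 with SKA2 and MRPS12 with SARS2 were among them as well.

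Of the genes in myc_FLAG alone whose region was itself single-list, the 8 with the highest fold came from 4 regions, each at the ends of 2 genes. FAM83F, with a fold of 8.87 (rank 76), is not among them because its region was shared, with the myc_FLAG summit 955 bp from the gene's end and no endog_myc summit within 1000 bp of either end. DRC3, a dynein regulatory complex gene, and TOM1L2, an endosomal adaptor, shared a region on chromosome 17 from 17972486 to 17972728 (fold 9.93, rank 53, −log10 q 17.9). LIN37, of the MuvB complex, and PSENEN, a gamma-secretase subunit, shared one on chromosome 19 from 35748437 to 35748710 (fold 8.25, rank 96), 70 bp from the LIN37 start. The region at AARS1, the alanyl-tRNA synthetase, and DDX19B, an RNA helicase (fold 7.90, rank 104) lay 85 bp from the AARS1 start. ATF7, a basic leucine zipper factor, and the readthrough gene ATF7-NPFF shared a region with a fold of 7.68 (rank 122). Of these 4 regions, those at DRC3, AARS1 and ATF7 had an edit_myc_FLAG gene-end region, with folds of 5.48, 7.01 and 8.94, and LIN37 had none.

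The endog_myc genes chosen in the same way were led by H3-3B, which encodes the replacement histone H3.3. Its region on chromosome 17 ran from 75779680 to 75780078 (fold 10.2, rank 36, −log10 q 17.3), 217 bp from the start site, and the gene also had an edit_myc_FLAG region with a fold of 5.71. SPRYD3 followed with 8.72 (rank 60), TYK2, a Janus kinase, with 8.72 (rank 61), and the pair MACO1 and RHCE with 8.35 (rank 74). ZSWIM3 and ACOT8, a peroxisomal thioesterase, shared a region with a fold of 8.14 (rank 85), and KANSL1, a subunit of the NSL acetyltransferase complex, had 7.93 (rank 94). SPRYD3, ZSWIM3 and ACOT8 had no edit_myc_FLAG region. None of these genes had an IgG summit within 1000 bp of an end, and neither did any other gene of either list. Regions overlapping IgG had been dropped beforehand, so this absence is in part set by the rule.

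Among the gene lists of known MYC biology, few members were reached. At least 1 of the 2 lists held a region for 499 protein-coding genes, 2.5% of those tested. None of 61 ribosome biogenesis genes, 41 translation factor genes or 13 MAX network genes was among them. Of 59 MYC target genes only UNG, the uracil-DNA glycosylase, was, in endog_myc with a fold of 5.67. With a background of 2.5%, lists of this size hold few members in any case, and no test was made of them. No olfactory receptor gene of 392 had a region.

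Splicing and mRNA processing had 9 of 107 genes with a region (8.41%), against 2.5% of all tested genes, and 5 of them in both lists. The 5 were SNRPA, HNRNPC, SF1, the branch point binding protein, with folds of 5.71 in myc_FLAG and 5.75 in endog_myc, HNRNPA0 with 5.63 and 5.99, and HNRNPA1 with 4.81 and 6.18. The summit at HNRNPA1 was nearer to CBX5 in myc_FLAG. All 5 also had an edit_myc_FLAG region, as did 134 of all 158 genes at a shared pair (84.8%). SON, a splicing cofactor of nuclear speckles (6.54), and SNRPD2, a core Sm protein (4.65), were in myc_FLAG alone. HNRNPR (6.21) and PABPN1, which binds poly(A) tails in the nucleus (7.38), were in endog_myc alone. This list was written with SNRPA and HNRNPC already known as bound, so its share is a description.

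Nucleotide and polyamine synthesis had 5 of 34 genes with a region (14.7%), against 2.5% of all tested genes, with none in both lists. Of all tested genes 0.821% were in both lists, so none among 34 is near that share. MTHFD1, a folate enzyme (5.19), CTPS1, the CTP synthase (6.48), and GART (6.54), whose region was nearer to SON, were in myc_FLAG alone. The ribonucleotide reductase genes RRM2 (3.97) and RRM2B (4.68) were in endog_myc alone. Chaperones had 4 of 28 genes (14.3%), against the same 2.5%. Both shares rest on few genes, in lists chosen with earlier results known, and were not tested. HSPA1B, the inducible HSP70, was in both lists with folds of 7.78 and 8.40, HSPA5, the endoplasmic reticulum HSP70 (5.40), and HSP90B1, its HSP90 counterpart (7.01), were in myc_FLAG alone, and TCP1 was in endog_myc alone (4.61), by a region closer to MRPL18.

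Oxidative phosphorylation had 7 of 85 genes (8.24%). NDUFB3 of complex I was in both lists (5.35 and 4.86). NDUFS8 (6.94), SDHA (6.25), ATP5IF1, the ATP synthase inhibitor (5.95), and NDUFA11 (5.75), nearer to VMAC, were in myc_FLAG alone, and NDUFV3 (7.0) and COX5A (4.69) in endog_myc alone. Among mitochondrial ribosomal proteins 3 of 77 genes had a region, with MRPS12 in both lists, where SARS2 was nearer, and MRPL18 (4.61) and MRPL54 (5.08) in endog_myc alone. Of 37 tRNA synthetase genes SARS2 (7.84 and 8.10) and AARS1 had one. The cell cycle list gave LIN37 and CDK2 (7.22 in endog_myc, nearer to RAB5B) of 50 genes. Replacement and linker histones gave H3-3B and H2AZ2 (6.41) of 9, both in endog_myc alone. Zinc finger genes gave 10 of 517 (1.93%), close to the 2.5% of all genes, with ZNF555, ZNF57, ZNF77, ZNF678 and ZNF687 in both lists.

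The gene-poor regions were concentrated in long stretches without genes. Gaps of over 1 Mb between neighbouring annotated genes held 297 myc_FLAG regions (37.1%) in 18 gaps and 316 endog_myc regions (36.2%) in 20 gaps. The largest group lay on chromosome 1 between 121610269 and 143265927, with 130 myc_FLAG regions, of which 72 were shared, and 143 endog_myc regions, of which 73 were shared. A gap on chromosome 10 held 29 and 38 regions, and one on chromosome 17 held 13 and 14, of which 11 were shared in each list. In hg38 many such gaps hold the modelled centromeric repeats, where short reads can fit many copies. The sources used here do not say how reads with several positions were treated, and their part in the sharing was not tested.

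The highest gene-poor pairs stood among the first 12 ranks of both lists. The pair on chromosome 7 from 59251656 to 59251972 in myc_FLAG had a fold of 19.4 (rank 4) and in endog_myc 20.1 (rank 2), with the summits 1 bp apart. A pair on chromosome 17 from 26101444 to 26101730 had 17.8 (rank 5) and 18.2 (rank 3). Pairs on chromosome 11 from 52044842 to 52045065 and on chromosome 1 from 124757602 to 124757880 had ranks of 12 and 4 and of 7 and 10. All 4 also overlapped edit_myc_FLAG, and their summits were at most 7 bp apart.

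Single-list regions with high folds occurred in the same places. In myc_FLAG alone were regions on chromosome 11 from 53936855 to 53937048 (fold 13.6, rank 17), on chromosome 7 from 58535771 to 58536097 (13.5, rank 18) and on chromosome 11 from 52882969 to 52883150 (13.1, rank 23). In endog_myc alone were regions on chromosome 4 from 50662177 to 50662406 (12.4, rank 17), on chromosome 18 from 16265977 to 16266194 (11.8, rank 20) and on chromosome 13 from 16413059 to 16413365 (10.8, rank 30). Of these 6 only the first overlapped edit_myc_FLAG. Without all regions in gaps over 1 Mb, 46.6% of 504 myc_FLAG regions and 42.0% of 557 endog_myc regions were shared, the share of pairs with summits within 50 bp was 47.4% and rho over all pairs was 0.60.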

How the data were processed

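CUT&RUN peak lists of HEK293T cells were used, 1 list for each of myc_FLAG, endog_myc and edit_myc_FLAG (3 libraries each) and 1 for each IgG library. The submitters' processing notes name hg38, MACS3 3.0.0b1, HOMER 4.10, SAMtools 1.15 and Bowtie2 2.4.5, while their roles, their options and the control used in calling are not stated in the sources used here. The deposited columns give a caller score (10 times the −log10 q, not analysed), a fold enrichment, a −log10 p (not analysed), a −log10 q and a summit offset, all by the authors. Read depth is unknown.

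Rows on chromosomes 1 to 22 and X outside both IgG lists were kept, and overlaps, mutually nearest summits and ranks were computed with Python 3.11.15, pandas 2.3.3 and SciPy 1.17.1. Positions count from 1. Genes were the 19974 protein-coding genes of a RefSeq table (GRCh38.p14), and start sites and sequences came from RefSeq promoter records, which covered 79.2% of them and no gene of chromosome 8. Fisher's exact tests used regions as units, so p-values do not measure the spread between libraries, and neighbouring regions are not fully independent. Overlap and test code was tested on simulated lists.

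The lists, members and gene groups were chosen with earlier results of these data known. Named genes were the 12 shared genes with the lowest rank sum, the 8 highest-fold genes of each list alone at single-list regions, members of gene lists, the 4 largest rank shifts each way, the 3 farthest summit pairs, and the highest gene-poor regions.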

Additional observations from a re-analysis of the deposited data

How the results depend on the processing

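No paired analysis was possible because each target list stands for its 3 libraries together and its columns carry no replicate; leaving out a replicate was not possible either. Over all alternatives 96 values kept their direction and call or stayed within the error, 25 moved and 9 changed sign, and the cause was not tested. The shared against single-list differences in overlap with edit_myc_FLAG passed the exact test in every alternative run. Leaving out regions in gaps over 1 Mb was chosen after seeing the data.

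The shared share of myc_FLAG and endog_myc was 61.1% and 57.0% with IgG regions kept, 53.1% and 49.1% with a −log10 q of at least 5 in both lists, 64.3% and 61.8% with that limit in 1 list against the whole other list, and 45.1% and 41.4% with summits within 200 bp. It was 44.8% for myc_FLAG with only the species-matched IgG dropped. The gene-end difference, shared minus single-list, was -7.41 points in myc_FLAG and -10.2 points in endog_myc with IgG regions kept. In endog_myc it was also -6.32 points with the q limit in both lists, -1.36 points over the 500 highest-fold regions and -1.27 points with ends of 5000 bp. The gene-poor difference was -0.868 points in myc_FLAG with the q limit and, between single-list regions, -0.583 points with species-matched IgG. The difference between single-list regions in overlap with edit_myc_FLAG was -5.20 points with the q limit and -1.34 points without the gaps.

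Pairs within 50 bp made up 65.5% with IgG regions kept, 73.9% with the q limit and 47.4% without the gaps. At gene ends they were 51.6% with the q limit, and in gene-poor places 92.7%, 89.4% over the 500 highest-fold regions and 70.0% without the gaps. The 70.0% rests on 10 gene-poor pairs, and its interval of 39.7 to 89.2 includes the 40.2% at gene ends under the same setting. The rank correlation of fold over all pairs was 0.86 with the q limit, 0.58 over the 500 highest-fold regions, 0.60 without the gaps and 0.60 by q rank. It was 0.52 at gene ends with the q limit and 0.71 in gene-poor places by q rank. With the q limit 76 genes were in both lists, 62 in myc_FLAG alone and 101 in endog_myc alone.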

Other observations

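Outside protein-coding gene ends, a few shared regions lay within 1000 bp of the end of other annotated genes, all named after their values were seen. Ends of long non-coding RNA genes held 8 shared regions in each list, among them that of CHASERR, beside 10 single-list regions in myc_FLAG and 13 in endog_myc. Pseudogene ends held 9 shared regions in each list, at mitochondrial pseudogenes such as MTCO1P2 and MTND5P11 and at the DUX4-like copies DUX4L13, DUX4L25 and DUX4L34. Ribosomal RNA gene ends held 2 shared regions in each list, at the 5S genes RNA5S1 and RNA5S17, with 2 more in myc_FLAG alone and 6 more in endog_myc alone. These genes are repeated or have near-identical copies, so the position of their reads is uncertain.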
